A study of Mus musculus with 6 samples.

Results

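Tight junctions close the space between neighbouring epithelial cells, and 10 genes of these junctions were followed here through the endometrium of mice with adenomyosis. They were the claudins Cldn1, Cldn2, Cldn3, Cldn4, Cldn7, Cldn8, Cldn10 and Cldn23, the membrane protein occludin (Ocln) and the plaque protein ZO-1 (Tjp1). The genes were taken by symbol from a table of 44788 genes and were chosen with earlier results of these data known. All 10 are reported, whatever their values. Each had a row, and all 10 were among the 16581 genes with enough reads to be tested.

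Claudins are small proteins that span the membrane, and their outer loops meet those of the next cell to form strands that either seal the gap or leave pores for chosen ions. Occludin runs in the same strands, and ZO-1 ties them to the actin cytoskeleton from inside the cell. In the uterus these strands separate the luminal fluid, in which the embryo floats before implantation, from the stroma beneath the epithelium.

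The agonist group consisted of ICR mice, an outbred strain, that received triptorelin (Decapeptyl), a GnRH agonist, into the abdomen at 1.5 µg per 100 g of body weight per day from day 3 to day 9 of estrus. The no-agonist group received the solvent alone. Both groups carried the same induced disease: on days 2 to 5 after birth every animal had swallowed tamoxifen (2.7 µmol/kg), which induces adenomyosis, endometrial tissue within the muscle wall, and after 75 days 16 mice were divided into groups of 8. Mating followed 4 weeks later, and on the evening of day 4 of pregnancy, near the time of implantation, the endometrium was collected by scraping. Only uteri in which histology and smooth muscle actin staining had both shown adenomyosis were used. Each group had 3 sequenced libraries, and the labels name neither the animal nor a litter, batch or day for a library, so p-values measure the spread between libraries, which may be partly technical. No group without tamoxifen is among the 6 libraries.

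Library totals lay between 11720958 and 14104266 counts. Levels are given as CPM, counts per 1000000 of the TMM-scaled library size, and 3 counts, the limit that a count of 0 allows, came to 0.204 to 0.276 CPM, which covers counting error only. Epithelial markers were plentiful in all libraries, as the tissue label requires: Cdh1 (E-cadherin) ranged from 329 to 502 CPM in agonist libraries and from 451 to 638 CPM in no-agonist libraries. Smooth muscle was present as well, at a summed level of 10 markers of 3455 to 13259 CPM with the agonist and 8553 to 21379 CPM without it. Stromal markers summed to 4332 to 5546 CPM with the agonist and 4404 to 7041 CPM without it. Mesothelial markers summed to 35.2 to 82.0 and 25.1 to 64.2 CPM (with and without agonist). Without Wt1, their most abundant gene, they summed to 43.2, 1.97 and 21.5 CPM in agonist libraries and 16.5, 1.83 and 25.6 CPM in no-agonist libraries. Msln and Lrrn4 had 0 counts in agonist library 2 and no-agonist library 2. Leukocyte markers summed to 86.6 to 177 CPM with the agonist and 276 to 573 CPM without it. The leukocyte sums rested on Itgam, at 97.4, 25.1 and 15.0 CPM in agonist libraries and 347, 224 and 455 CPM in no-agonist libraries, and without it they overlapped, at 71.6 to 79.7 CPM with the agonist and 52.4 to 162 CPM without it. Of the 10 leukocyte markers tested 6 had a positive and 4 a negative fitted difference. The groups separated downward for 2 of them, Itgam and Cd68, and upward for 1, Cd79a. Over all genes tested 7.61% separated downward and 6.94% upward. The ovarian Cyp19a1 and Cyp11a1 had 0 counts in every library, while the oviduct glycoprotein Ovgp1 measured 173 CPM in agonist library 1 and 1.21 to 14.2 CPM in the other libraries. On the same list Star was counted in every library, at 18.1, 4.01 and 2.46 CPM with the agonist and 2.94, 5.83 and 16.4 CPM without it. Foxj1 was highest in agonist library 3, at 6.77 CPM, against 1.52 CPM in agonist library 1. Amh reached at most 0.459 CPM.

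The question put to these genes was whether the tight junction messages of the receptive-stage endometrium differed after agonist treatment. The mean level of the abundant Cldn7 in the agonist group was 0.536 times, and that of Cldn4 0.521 times, the mean without agonist, while the scarce Cldn1 and Cldn8 had means 8.05 and 5.00 times as high, carried mainly by agonist library 3. Cldn3, Cldn10, Cldn23, Ocln and Tjp1 had log2 fold changes between -0.30 and 0.32, and Cldn2 varied widely within groups. In bulk tissue fewer epithelial cells and less message per cell cannot be told apart. With edgeR (quasi-likelihood test, adjusted over all genes after Benjamini and Hochberg) 0 of the 10 reached an adjusted p under 0.05, and neither did any other gene (0%). Without adjustment 4 of the 10 had p under 0.05, against 9.26% of all genes tested: 2 members were higher, where 4.17% of all genes were, and 2 were lower, where 5.09% were. Because the genes were chosen with earlier results of these data known, these counts only describe the list. A log2 fold change above 1 was fitted for Cldn1 and Cldn8 and for 4.95% of all genes, and one below -1 for Cldn2 and 4.36% of all genes. DESeq2 called 0 of the 10 after adjustment, beside 2.36% of all genes (0.84% higher, 1.52% lower), and edgeR's likelihood ratio test and limma-voom also called 0. Of the fitted differences of the members 5 were positive and 5 negative, with a median log2 fold change of -0.02 beside 0.02 for all genes tested.

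**Figure D1:**
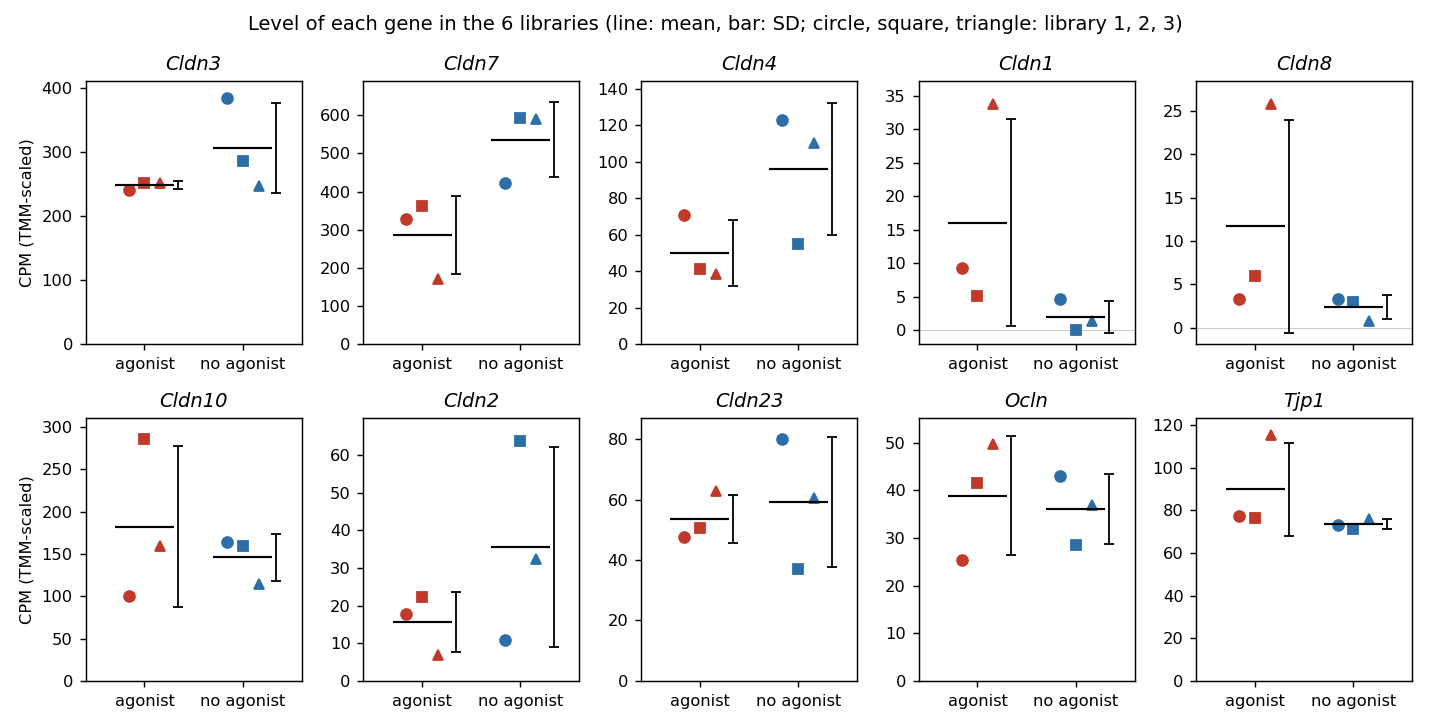
Level of each of the 10 genes in CPM (vertical axes, linear, 1 scale per gene) in the 3 agonist and the 3 no-agonist libraries, with the mean as a line and the SD as a bar. Cldn7 is lower in every agonist library than in any no-agonist library, and the means of Cldn1 and Cldn8 in the agonist group rest mostly on library 3, at 33.7 and 25.8 CPM.

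Cldn3 and Cldn7 made up most of the message of the 8 member claudins. Claudins outside the 8, such as Cldn5 at a mean of 83.5 CPM, were not ranked here. Per kilobase of exon, which is the scale on which genes can be compared with each other, Cldn3 averaged 197 ± 4.88 in the agonist group and 243 ± 55.9 CPM per kb in the no-agonist group (SD, n = 3 each). Cldn7 averaged 147 ± 52.1 CPM per kb with the agonist and 275 ± 50.5 CPM per kb without it. Over all 6 libraries the order of the levels per kb went on with Cldn10 at 63.3, Cldn4 at 40.3, Cldn23 at 30.5, Tjp1 at 10.5, Ocln at 8.88, Cldn2 at 7.73, Cldn8 at 2.98 and Cldn1 at 1.86 CPM per kb. Some neighbours in this order were not apart: Cldn3 lay above Cldn7 in 4 of the 6 libraries, Cldn10 above Cldn4 in 3, Cldn4 above Cldn23 in 4, Tjp1 above Ocln in 4 and Ocln above Cldn2 in 4. The steps from Cldn7 to Cldn10 and from Cldn23 to Tjp1 held in all 6.

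The abundant sealing claudins come first. Cldn7, which in other epithelia also lies along the side walls of the cell and binds the adhesion molecule EpCAM (chromosome 11, 69964779 to 69967885, GRCm38), measured 328, 361 and 171 CPM in agonist libraries 1, 2 and 3, against 422, 594 and 591 CPM in no-agonist libraries 1, 2 and 3. Every agonist library lay below every no-agonist library, as for 7.61% of all genes tested. The means of 287 ± 102 and 536 ± 98.4 CPM (SD, n = 3 each) gave a log2 fold change of -0.90 ± 0.32 (SE; edgeR quasi-likelihood test, unadjusted p = 0.0248, adjusted p = 0.462). This was the smallest p among the 10 genes, and Cldn7 was the single member whose groups separated toward lower levels. The unadjusted p was above 0.05 when agonist library 3 (0.0539), no-agonist library 2 (0.0692) or no-agonist library 3 (0.0634) was left out.

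Cldn4, a claudin that limits sodium passage in many epithelia and is also a receptor for a Clostridium toxin (chromosome 5, 134945119 to 134946934), measured 70.7, 41.2 and 38.2 CPM in agonist libraries and 123, 54.9 and 110.5 CPM in no-agonist libraries. The groups overlapped, because no-agonist library 2 lay below agonist library 1. The log2 fold change was -0.94 ± 0.36 (unadjusted p = 0.0334, adjusted p = 0.500), and leaving out agonist library 2 or 3 or no-agonist library 1 or 3 gave unadjusted p of 0.0854 to 0.113. Among the other members its centred log2 profile over the 6 libraries came closest to that of Cldn3 (root-mean-square difference 0.56), Cldn23 (0.57) and Cldn7 (0.58).

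Cldn3, its neighbour on chromosome 5 (134986214 to 134987472) and a receptor for the same toxin, lies 39280 bases away from start to start in the opposite orientation. It measured 241, 252 and 252 CPM in agonist libraries and 384, 286 and 247 CPM in no-agonist libraries. The agonist libraries were within a narrow band, which no-agonist library 3 also reached. Its log2 fold change of -0.30 ± 0.22 did not pass (unadjusted p = 0.220, adjusted p = 0.746). The pair shares exact stretches of at most 35 bases between their annotated transcripts, the longest such stretch between any members. Per kb, Cldn4 stood at 0.203, 0.114 and 0.105 of the Cldn3 level in agonist libraries and at 0.222, 0.133 and 0.310 of it in no-agonist libraries, ranges that overlap.

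The sequence before the start sites of these 3 genes is shown because Cldn4 and Cldn7 had the lowest p among the members with lower levels, while the adjacent Cldn3 differed less. The RefSeq promoter table used here matched 8 of the 10 genes, with 11 promoters. Of the motifs searched on both strands in the 250 bases before each start, the E-box CAGGTG, a motif bound by Snail and Zeb factors, was found at 1 start site each of Cldn4, Cldn7 and Ocln, 3 of the 11 promoters, where 17.2% of all 32851 promoters hold it. The grainyhead-like motif (AACC, any base, GTT; in 1.79% of all promoters), the estrogen response element GGTCANNNTGACC (0.0639%) and the progesterone and glucocorticoid type element GNACANNNTGTNC (0.387%) were at none of the 11. No match overlapped another motif. Such matches describe letters and not binding. Capitals mark the E-box on either strand, and sequences run 5′ to 3′ on the strand of the gene (RefSeq, GRCm38.p6), for Cldn4 at chr5:134946935-134947184 (minus), Cldn7 at the downstream of its 2 start sites at chr11:69965171-69965420 (plus) and Cldn3 at chr5:134985964-134986213 (plus).
Cldn4: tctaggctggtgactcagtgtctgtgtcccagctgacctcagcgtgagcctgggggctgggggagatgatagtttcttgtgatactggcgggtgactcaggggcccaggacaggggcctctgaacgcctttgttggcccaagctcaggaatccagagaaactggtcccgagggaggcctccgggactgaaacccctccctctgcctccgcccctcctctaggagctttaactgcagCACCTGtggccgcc
Cldn7: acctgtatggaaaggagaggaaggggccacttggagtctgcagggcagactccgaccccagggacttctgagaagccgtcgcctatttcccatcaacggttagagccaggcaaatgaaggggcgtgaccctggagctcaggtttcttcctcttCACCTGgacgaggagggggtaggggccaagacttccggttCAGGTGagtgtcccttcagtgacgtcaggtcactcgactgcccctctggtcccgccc
Cldn3: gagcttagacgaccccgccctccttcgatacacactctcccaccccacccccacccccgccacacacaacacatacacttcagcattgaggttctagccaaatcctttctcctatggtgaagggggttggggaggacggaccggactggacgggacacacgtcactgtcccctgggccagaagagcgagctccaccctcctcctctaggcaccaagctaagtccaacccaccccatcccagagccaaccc
The match in Cldn4 ends 9 bases before the start. Those in Cldn7 begin 97 and 57 bases before it.

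**Figure D2:**
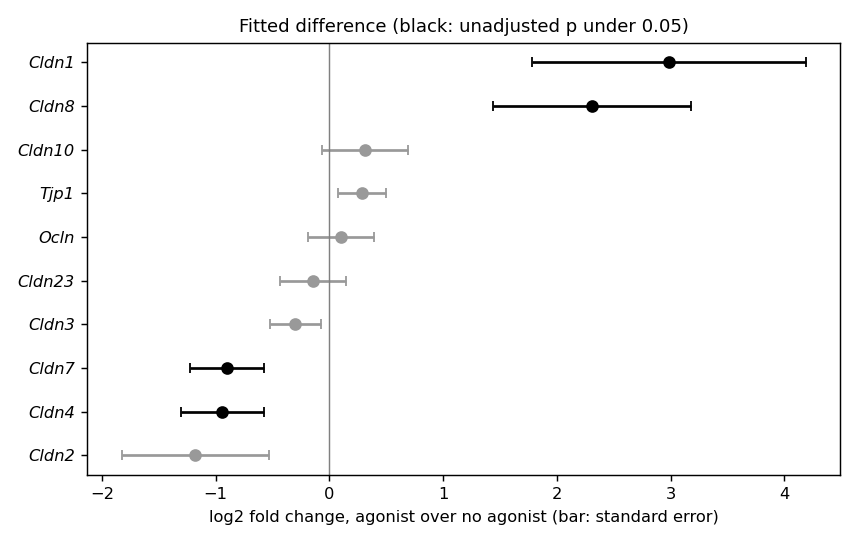
Fitted log2 fold change of each gene, agonist over no agonist (horizontal axis), with its standard error as a bar. Black points have an unadjusted p under 0.05, and these are Cldn1 and Cldn8 at 2.99 and 2.31 and Cldn7 and Cldn4 at -0.90 and -0.94.

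The scarce claudins lay the other way. Cldn1, a sealing claudin without which the mouse epidermis loses its water barrier (chromosome 16, 26356642 to 26371841), measured 9.31, 5.16 and 33.7 CPM in agonist libraries, against 4.60, 0 and 1.38 CPM in no-agonist libraries. In counts these were 116, 76 and 438 with the agonist and 61, 0 and 15 without it. All agonist libraries lay above all others, as for 6.94% of all genes tested, although agonist library 2 and no-agonist library 1 were close. The log2 fold change was 2.99 ± 1.21 (unadjusted p = 0.0399, adjusted p = 0.515), and without agonist library 3 it was 1.84 ± 1.24 (unadjusted p = 0.185). It was 2.78 ± 1.45 without no-agonist library 3 (unadjusted p = 0.0978) and 4.54 ± 1.42 without no-agonist library 1 (unadjusted p = 0.0163).

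Cldn8, known from the kidney collecting duct, where it works with Cldn4 in the passage of chloride between cells (chromosome 16, 88560828 to 88563183), measured 3.29, 5.98 and 25.8 CPM in agonist libraries and 3.32, 2.96 and 0.735 CPM in no-agonist libraries. Agonist library 1 lay within the no-agonist range. The log2 fold change was 2.31 ± 0.87 (unadjusted p = 0.0301, adjusted p = 0.488) and 0.98 ± 0.69 without agonist library 3 (unadjusted p = 0.201). Leaving out no-agonist library 2 or 3 gave 2.51 and 1.90 (unadjusted p = 0.0525 and 0.0756). Per kb, Cldn8 stood at 0.0359, 0.112 and 0.520 of the Cldn4 level in agonist libraries and at 0.0208, 0.0415 and 0.00513 of it in no-agonist libraries.

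The channel-forming claudins showed no shared direction. Cldn10, which forms paracellular ion channels whose selectivity depends on the isoform (chromosome 14, 118787908 to 118875489), measured 99.97, 286 and 159.7 CPM in agonist libraries and 164, 159.7 and 114 CPM in no-agonist libraries. Agonist libraries held both its lowest and its highest level. The log2 fold change of 0.32 ± 0.38 (unadjusted p = 0.426, adjusted p = 0.861) was -0.17 ± 0.30 without agonist library 2. RefSeq places 2 start sites in the gene, 67079 bases apart, and counts per gene do not separate the isoforms that begin at them.

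Cldn2, a pore for sodium and water in leaky epithelia (chromosome X, 139800828 to 139811386), measured 17.9, 22.4 and 6.92 CPM in agonist libraries and 10.9, 63.8 and 32.4 CPM in no-agonist libraries. The no-agonist values spanned most of the range and included 1 below both of the higher agonist values. The log2 fold change was -1.18 ± 0.65 (unadjusted p = 0.108, adjusted p = 0.643), the lowest of the 10 but with a large error. Without no-agonist library 2 it was -0.45 ± 0.61 (unadjusted p = 0.486), and without no-agonist library 1 it was -1.61 ± 0.52 (unadjusted p = 0.0191).

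Cldn23, a less studied claudin (chromosome 8, 35824712 to 35826559), measured 47.7, 50.5 and 62.8 CPM in agonist libraries and 80.0, 37.0 and 60.6 CPM in no-agonist libraries. The agonist values lay inside the no-agonist range, with a log2 fold change of -0.14 ± 0.29 (adjusted p = 0.926).

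The partners had small positive fitted differences. Occludin (chromosome 13, 100496507 to 100552718) measured 25.3, 41.6 and 49.7 CPM in agonist libraries and 43.0, 28.5 and 36.9 CPM in no-agonist libraries. The groups overlapped throughout (log2 fold change 0.10 ± 0.29, adjusted p = 0.953). Tjp1 (chromosome 7, 65296165 to 65527781) measured 77.6, 76.7 and 115 CPM in agonist libraries and 73.0, 71.4 and 76.0 CPM in no-agonist libraries. All agonist values were above the others, but those of libraries 1 and 2 by under 2 CPM, and the log2 fold change of 0.29 ± 0.21 did not pass (unadjusted p = 0.212, adjusted p = 0.740), with 0.07 ± 0.19 left without agonist library 3. Ocln lay closest to Cldn23 (root-mean-square difference of centred log2 levels 0.26) and to Tjp1 (0.28), the closest pairs among the 10.

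The sum of the 8 claudins per kb was 472, 556 and 425 CPM per kb in agonist libraries, against 701, 665 and 648 CPM per kb in no-agonist libraries, and the groups did not overlap. This rested on Cldn7, which held 147 of the mean of 484 with the agonist and 275 of 671 CPM per kb without it. Without Cldn7 the sums of the groups overlapped. As a share of the sum of all 8, a measure on which library scaling has no effect, Cldn7 took 35.7, 33.3 and 20.7% in agonist libraries and 30.9, 45.9 and 46.8% in no-agonist libraries. No-agonist library 1 therefore lay within the agonist range, although its Cldn7 level did not. Cldn3 took 41.2 ± 5.64% with the agonist and 36.0 ± 6.76% without it, while Cldn10 took 14.2 ± 5.86% with the agonist and 8.37 ± 1.35% without it (SD, n = 3 each). Cldn1 and Cldn8 were under 3% in every library. Their shares were the single ones of the 8 without overlap, at 0.192 to 1.64% against 0 to 0.136% for Cldn1 and at 0.296 to 2.57% against 0.0482 to 0.201% for Cldn8 (agonist against no agonist). The levels of Cldn8 did overlap, at 1.40 CPM per kb in agonist library 1 and 1.41 CPM per kb in no-agonist library 1, where the claudin sums were 472 and 701. For both shares, the exact two-sided permutation p = 0.1 is the smallest that 3 against 3 libraries allow. The other 6 shares gave exact permutation p of 0.3 to 0.5.

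**Figure D3:**
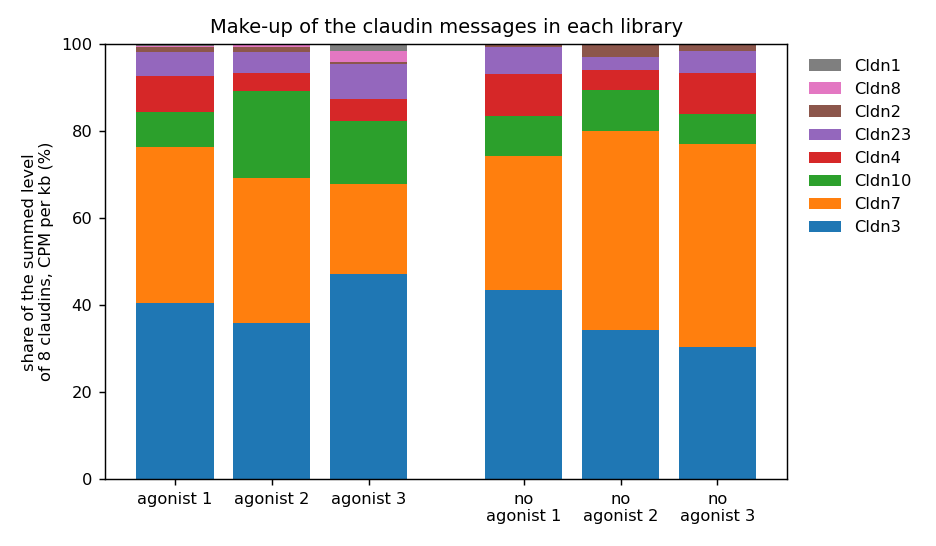
Make-up of the summed level of the 8 claudins (CPM per kb of exon, as percent) in each of the 3 agonist and 3 no-agonist libraries. Cldn3 and Cldn7 fill most of each bar, Cldn7 has its lowest share in agonist library 3 at 20.7%, and Cldn8 and Cldn1 are visible mainly in that library, at 2.57 and 1.64%.

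Most epithelial markers had negative fitted differences as well. Of 16 markers, all tested, 13 had a negative difference, as had 7925 of the 16581 genes tested, and 3 a positive one. Toward lower levels 6 had an unadjusted p under 0.05 by edgeR's quasi-likelihood test, as had 5.09% of all genes tested. Groups separated downward for 6 markers and upward for 0, where 7.61% and 6.94% of all genes did. The remaining markers, Cdh1 and Epcam among them, overlapped. The summed level of the 16 markers was 5484 to 7932 CPM in agonist libraries and 9133 to 14574 CPM in no-agonist libraries. Krt8, the most abundant of the list, measured 1210.1, 1551 and 898 CPM in agonist libraries and 1373, 2954 and 2393 CPM in no-agonist libraries. Picked after their values were seen, Krt7 and Krt19 had log2 fold changes of -1.86 ± 0.40 and -1.15 ± 0.34, while those of Cdh1 and Epcam were -0.39 ± 0.26 and -0.29 ± 0.30, none past the adjusted threshold. Their part in the claudin differences was not tested.

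Set against the sum of Cdh1, Epcam, Krt8 and Krt18, which was 3077, 3070.0 and 2322 CPM in agonist libraries and 2975, 5366 and 4126 CPM in no-agonist libraries, the members kept different patterns. Cldn7 amounted to 10.7, 11.8 and 7.37% of that sum in agonist libraries and 14.2, 11.1 and 14.3% in no-agonist libraries. The groups then overlapped, but this depended on Krt8. Without Krt8 the sum was 1867, 1519 and 1424 CPM in agonist libraries and 1601, 2412 and 1733 CPM in no-agonist libraries. Set against that smaller sum, the Cldn7 groups stayed narrowly apart. Cldn4 amounted to 1.76 ± 0.488% with the agonist and 2.61 ± 1.56% without it, while Cldn3 amounted to 8.97 ± 1.65% with the agonist and 8.08 ± 4.19% without it (SD, n = 3 each). With libraries scaled by this sum, the log2 fold change of Cldn7 was -0.41 ± 0.36 and that of Cldn4 -0.57 ± 0.45, on a scale on which the median gene moved to 0.52. On this scale the unadjusted p by edgeR's quasi-likelihood test was 0.274 for Cldn7 and 0.223 for Cldn4. Relative to that median Cldn7 and Cldn4 stood at -0.93 and -1.08, beside -0.92 and -0.96 with TMM scaling. A change of scaling shifts most genes alike, so subtracting the median largely undoes it. That likeness therefore could not show whether the differences go beyond those of the epithelial markers.

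On this ratio 2 of the 10 members, Tjp1 and Cldn1, lay higher in all agonist libraries, as did 18.4% of all genes. Tjp1 amounted to 2.52, 2.50 and 4.96% of the sum with the agonist and 2.45, 1.33 and 1.84% without it. Cldn1 amounted to 0.302, 0.168 and 1.45% with the agonist and 0.155, 0 and 0.0334% without it. Their log2 fold changes with libraries scaled by this sum were 0.83 ± 0.40 and 3.37 ± 1.03, with edgeR adjusted p of 0.391 and 0.190. For Tjp1 the separation depended on Krt8. Set against the smaller sum without Krt8, its groups overlapped, with agonist library 1 below no-agonist library 1, while the Cldn1 groups stayed apart.

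**Figure D4:**
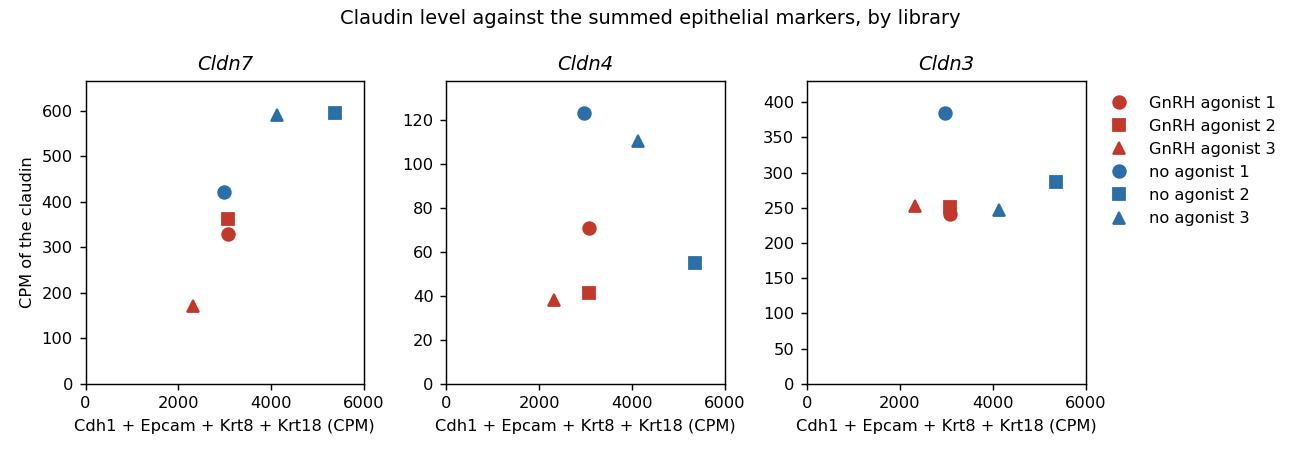
Level of Cldn7, Cldn4 and Cldn3 in CPM (vertical axes) against the summed CPM of Cdh1, Epcam, Krt8 and Krt18 (horizontal axis) in the 3 agonist and 3 no-agonist libraries. Agonist library 3 has the lowest value of both sum and Cldn7, at 2322 and 171 CPM, while Cldn3 stays between 241 and 252 CPM in the agonist libraries.

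The 3 genes whose centred log2 levels over the 6 libraries came nearest to those of Cldn7, out of 12874 tested genes with a mean of at least 5 CPM, were the tetraspanin Tspan8, the choline transporter-like Slc44a4 and 1110008P14Rik. Tspan8 measured 246, 295 and 126 CPM in agonist libraries and 314, 402 and 494 CPM in no-agonist libraries, at a root-mean-square difference of 0.10 from Cldn7. With so few libraries, likeness of this kind is a description. For Cldn8, looked up after its values had been seen, the nearest genes were the proline dehydrogenase Prodh (0.27), the matrix protein gene Frem2 (0.34) and the interleukin receptor Il1r1 (0.42). Il1r1 measured 65.1, 62.2 and 269 CPM in agonist libraries and 40.9, 23.9 and 13.7 CPM in no-agonist libraries, and so had its highest level in agonist library 3, as Cldn8 did. Nothing came as near to Cldn1, whose closest gene, Klhl14, differed by 0.997.

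Of the wider tight junction apparatus, 52 of 58 listed genes were in the table and 42 were tested. Of these 21 had a positive and 21 a negative fitted difference, with a median log2 fold change of 0.01. By edgeR's quasi-likelihood test 0 passed after adjustment, and without it Jam2 and Esam were higher with p under 0.05 and 0 were lower, where 4.17% and 5.09% of all genes tested were. Jam2 is a junctional adhesion molecule and Esam an adhesion molecule of endothelial cells. Jam2 measured 27.8, 52.1 and 48.8 CPM in agonist libraries and 30.5, 13.8 and 20.1 CPM in no-agonist libraries (log2 fold change 1.00 ± 0.36, adjusted p = 0.458). Esam measured 65.5, 91.3 and 58.9 CPM in agonist libraries and 52.8, 44.6 and 29.2 CPM in no-agonist libraries, with all agonist libraries above all no-agonist libraries (0.77 ± 0.28, adjusted p = 0.465).

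Endothelial markers lay the same way as Esam, which is 1 of the 10 listed. All 10 had positive fitted differences, as had 8656 of the 16581 genes tested, and 3 of them had an unadjusted p under 0.05, where 4.17% of all genes were higher. Their summed level was 463 to 656 CPM in agonist libraries and 347 to 434 CPM in no-agonist libraries. Their part in the Jam2 and Esam values was not tested. The endothelial claudin Cldn5 measured 116, 119 and 68.8 CPM in agonist libraries and 64.6, 33.2 and 99.4 CPM in no-agonist libraries, which overlapped (log2 fold change 0.62 ± 0.40, adjusted p = 0.696).

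Among the other claudins 7 of 17 in the table were tested, 5 with a positive and 2 with a negative difference. Cldn15, a cation pore of the intestine, measured 10.4, 7.88 and 3.23 CPM in agonist libraries and 11.7, 11.2 and 10.9 CPM in no-agonist libraries, without overlap (log2 fold change -0.65 ± 0.43, adjusted p = 0.711). Cldn12 and Cldn9 had log2 fold changes of -0.13 ± 0.21 and 0.61 ± 0.92. Cldn13, Cldn14, Cldn17, Cldn18 and Cldn24 had 0 counts in all 6 libraries, which allows up to 0.204 to 0.276 CPM per library.

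Where the corners of cells meet, the receptors Lsr and Ildr1 recruit tricellulin (Marveld2). Both lay lower in all agonist libraries: Lsr measured 241, 275 and 149 CPM in agonist libraries and 277, 373 and 297 CPM in no-agonist libraries (log2 fold change -0.51 ± 0.28, adjusted p = 0.637), and Ildr1 gave a log2 fold change of -0.37 ± 0.18 (adjusted p = 0.598). Marveld2 itself gave 0.06 ± 0.19 and Ildr2 0.19 ± 0.88. Of the 5 genes of this group 3 had negative and 2 positive differences, and none had an unadjusted p under 0.05.

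In the plaque, where scaffolds gather beneath the strands, 9 of 14 genes had positive and 5 negative differences, with 0 at an unadjusted p under 0.05. Tjp3 (ZO-3), the relative of ZO-1 restricted to epithelia, measured 343, 177 and 150.0 CPM in agonist libraries and 307, 372 and 530.0 CPM in no-agonist libraries (log2 fold change -0.85 ± 0.37, adjusted p = 0.540). Agonist library 1 lay within the no-agonist range. Toward higher levels the scaffold Magi1 gave 0.45 ± 0.25 and Arhgef2 0.38 ± 0.23.

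The polarity genes, which place the junction at the top of the side wall, had 7 negative and 2 positive differences among 9 tested, again with 0 at an unadjusted p under 0.05. Crb3, the epithelial Crumbs protein, measured 32.5, 34.7 and 27.9 CPM in agonist libraries and 38.1, 49.9 and 38.5 CPM in no-agonist libraries, without overlap (log2 fold change -0.41 ± 0.20, adjusted p = 0.579). Pard6a gave -0.51 ± 0.31, Pard6g 0.73 ± 0.41 and the kinase Prkci 0.12 ± 0.24. Among the immunoglobulin-like adhesion molecules, Cxadr and Igsf5 were lower in every agonist library, with log2 fold changes of -0.46 ± 0.20 and -0.39 ± 0.20 and adjusted p of 0.550 and 0.609. Of the 42 tested genes on the tight junction lists, 1 had groups that separated upward and 6 had groups that separated downward, where 6.94% and 7.61% of all genes tested did.

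The adherens junction, which lies just below the tight junction, had 7 negative and 2 positive differences among its 9 tested genes, 2 of them lower at an unadjusted p under 0.05, as were 5.09% of all genes tested. Alpha-catenin (Ctnna1), which links E-cadherin to actin, measured 423, 390.4 and 413 CPM in agonist libraries and 514, 661 and 642 CPM in no-agonist libraries (log2 fold change -0.57 ± 0.21, adjusted p = 0.482). The nectin Pvrl4 measured 72.1, 31.3 and 48.2 CPM in agonist libraries and 74.9, 76.1 and 108 CPM in no-agonist libraries (-0.77 ± 0.32, adjusted p = 0.527). For both, and for Ctnnd1, all agonist libraries lay below all no-agonist libraries. These were 3 of the 9 tested genes, where 7.61% of all genes tested separated downward. The nectins Pvrl1 and Pvrl3 gave 0.57 ± 0.55 and 0.25 ± 0.29.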

How the data were processed

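Per the labels' protocols, endometrial RNA of 6 libraries was read from 1 end on Ion Proton machines. The authors deposited raw counts per gene symbol in 1 table; per the submitters' processing notes the build was mm10 (GRCm38) and the counting tool HTSeq 0.6.1. Which aligner, annotation and strand setting were used is not stated in these sources, so reads of Cldn3 and its antisense neighbour Wbscr25, which overlap by 40 bases, and of genes within Tjp1 may not be told apart.

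The work was done in R 4.3.3. Low genes were removed by filterByExpr and TMM factors set the library sizes (edgeR 4.0.16), with DESeq2 1.42.0 and limma 3.58.1 as alternatives. The groups were compared over all genes with edgeR's quasi-likelihood F-test, without covariates, and Benjamini-Hochberg adjustment over 16581 genes. Coordinates and union exon lengths are from GENCODE M21 (GRCm38), and the annotation used for counting may differ. Centred log2 levels used a prior count of 2. Single shares were compared by an exact permutation test.

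The 10 genes and all lists were chosen with earlier results of these data known. Besides the members, up to 2 tested genes per direction and list with the smallest p were named, and the 3 genes most like the member of smallest p, which was also the most abundant by CPM; 1 gene of the plaque list that this rule names is not reported here. The pair ratios and the genes most like Cldn1 and Cldn8 were added after the values were seen. So were the leukocyte sums without Itgam, the mesothelial sums without Wt1 and the epithelial sums without Krt8. Levels of leukocyte, stromal and mesothelial marker lists were also computed. Alternatives covered 3 other tests, 5 other scalings, 2 filters, another gene length for the shares and leaving out each library.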

Additional observations from a re-analysis of the deposited data

How the results depend on the processing

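Of 376 alternative values, 331 kept their direction and side or stayed within their limits, 7 changed sign and 38 moved. The sign changed for Cldn3 with epithelial scaling (log2 fold change 0.15), for Cldn23 with library totals (0.014) and epithelial scaling (0.28), and on leaving out single libraries for Cldn10 (-0.17 to 0.62), Cldn23 (-0.38 to 0.14) and Ocln (-0.11 to 0.35, with -0.035 without no-agonist library 2).

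Members lower at an unadjusted p under 0.05 numbered 1 with library totals, 0 with epithelial scaling and 0 to 2 without single libraries (2 as reported), and members higher numbered 1 with DESeq2, 1 with limma-voom and 0 to 2 without single libraries (2 as reported). Both counts were 0 without agonist library 3 and also without no-agonist library 3. Groups without overlap toward lower levels numbered 0 with epithelial scaling and 1 to 2 without single libraries (1 as reported). Other tight junction genes lower at an unadjusted p numbered 1 with each of the likelihood ratio test, DESeq2, limma-voom and no filter, and 0 to 2 without single libraries (0 as reported). Those higher numbered 6 with epithelial scaling, 4 with no filter and 1 to 4 without single libraries (2 as reported). Over all genes, adjusted calls lower and higher numbered 164 and 104 by the likelihood ratio test, 251 and 139 by DESeq2, 30 and 53 with epithelial scaling and 28 and 8 with no filter (0 and 0 as reported), and 0 to 1 lower without single libraries. Over all genes the median log2 fold change was 0.18 with library totals and 0.52 with epithelial scaling, and genes higher and lower at an unadjusted p numbered 1192 and 520 with the first and 1896 and 251 with the second, against 691 and 844 as reported. The cause was not tested.

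No paired analysis was possible because the library numbers of the groups are not shared. With 3 libraries a group, the exact permutation test cannot go below 0.1, and at the depth of these libraries a count of 0, as for Cldn1 in no-agonist library 2, allows up to 0.204 to 0.276 CPM.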
